A study of Rattus norvegicus with 8 samples.

Results

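The genes described here carry peptides to MHC class I molecules in the rat liver, and comprise 10 genes with their 21 probes. They were chosen by name. Every non-control probe was taken whose gene name on the array was B2m, Tap1, Tap2, Tapbp, Psmb8, Psmb9, Psmb10, Psme1, Psme2 or Irf1. These are 10 of 25512 gene names on the array, and all 21 probes were bright enough to be tested among 18587 tested genes. RNA came from the liver of male Sprague Dawley rats, an outbred stock. The first group of 4 samples received 60% fat chow over 12 weeks and is called high-fat here. The control group of 4 samples was from rats kept on normal diet for the same 12 weeks. The labels give both groups 1 range of body weight, no age and no genetic change, and they state that livers were snap frozen. Each sample was hybridised with 1 dye to 1 of 8 arrays on 1 slide. The study was set up to find liver genes linked to the metabolic disturbance of diet-induced obesity.

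Nearly every nucleated cell shows short peptides of its own proteins on MHC class I molecules. The proteasome cuts proteins into peptides, and cells exposed to interferon gamma exchange the catalytic subunits Psmb5, Psmb6 and Psmb7 for Psmb8, Psmb9 and Psmb10, which together make the immunoproteasome. Psme1 and Psme2 form a ring that opens the proteasome's end. Tap1 and Tap2 form the pump that moves peptides into the endoplasmic reticulum, where Tapbp, tapasin, bridges the pump to an empty class I molecule. B2m is the light chain of every class I molecule, and Irf1 is a transcription factor that interferon gamma induces and that binds interferon response elements. In the liver, Kupffer cells, endothelial cells and lymphocytes carry more of this machinery than resting hepatocytes.

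Promoter windows are shown first because these genes are known as interferon targets and because most of their windows share a short motif. Each window runs from 250 bases before to 50 bases after the annotated start, in RefSeq on build GRCr8, and all 10 genes had one. Capitals mark letters of the interferon-stimulated response element (GAAA, then any 2 bases, then GAAA) or of the gamma-activated site (TTCNNNGAA), on either strand. Where 2 matches overlap, the capitals run together. The windows of Tapbp (chr20:4967828-4968127, minus strand), Psmb10 (chr19:50743243-50743542, minus strand), Psmb8 (chr20:4656982-4657281, minus strand), Tap1 (chr20:4668494-4668793, minus strand) and B2m (chr3:129549080-129549379, plus strand) read as follows, 5′ to 3′ along the gene.
Tapbp: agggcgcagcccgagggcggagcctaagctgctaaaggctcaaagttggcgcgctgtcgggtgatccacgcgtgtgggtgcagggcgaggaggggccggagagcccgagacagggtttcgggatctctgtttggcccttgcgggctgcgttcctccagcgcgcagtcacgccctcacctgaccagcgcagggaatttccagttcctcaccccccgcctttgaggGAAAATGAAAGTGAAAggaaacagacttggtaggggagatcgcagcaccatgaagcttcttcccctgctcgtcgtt
Psmb10: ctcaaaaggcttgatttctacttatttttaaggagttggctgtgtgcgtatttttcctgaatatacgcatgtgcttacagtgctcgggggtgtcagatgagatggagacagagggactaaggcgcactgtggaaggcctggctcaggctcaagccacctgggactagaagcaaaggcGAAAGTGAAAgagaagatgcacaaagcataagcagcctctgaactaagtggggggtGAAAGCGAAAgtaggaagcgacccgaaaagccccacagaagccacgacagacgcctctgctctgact
Psmb8: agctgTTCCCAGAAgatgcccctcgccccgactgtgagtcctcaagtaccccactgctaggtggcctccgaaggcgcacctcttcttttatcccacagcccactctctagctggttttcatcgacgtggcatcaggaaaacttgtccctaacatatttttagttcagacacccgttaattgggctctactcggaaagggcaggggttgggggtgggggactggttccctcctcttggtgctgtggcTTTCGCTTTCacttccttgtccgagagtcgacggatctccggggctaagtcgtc
Tap1: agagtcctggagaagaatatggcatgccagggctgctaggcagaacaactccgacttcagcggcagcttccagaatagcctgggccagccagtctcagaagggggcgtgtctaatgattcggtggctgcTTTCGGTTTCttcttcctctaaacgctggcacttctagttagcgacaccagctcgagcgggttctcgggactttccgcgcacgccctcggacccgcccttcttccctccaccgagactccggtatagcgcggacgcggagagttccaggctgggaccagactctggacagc
B2m: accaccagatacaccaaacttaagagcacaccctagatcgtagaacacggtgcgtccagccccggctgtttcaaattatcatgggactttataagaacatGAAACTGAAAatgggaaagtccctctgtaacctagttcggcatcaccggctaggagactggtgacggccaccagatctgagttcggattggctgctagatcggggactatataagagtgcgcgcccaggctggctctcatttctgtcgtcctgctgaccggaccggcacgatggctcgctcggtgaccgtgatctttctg

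The interferon-stimulated response element occurred in the windows of 7 of the 10 genes, which were B2m, Tap1, Tap2, Tapbp, Psmb8, Psmb10 and Psme2. It occurred in 3.92% of all 33469 windows of that length, and in 0 of the 3 windows of Psmb5, Psmb6 and Psmb7. Positions are counted from the annotated start on which each window is set. For B2m, Tapbp, Psmb8, Psmb9, Psme1 and Psme2 that start lies inside the gene's RefSeq span, not at its end. The whole Psme2 window lies within the gene's span. Tapbp held 2 overlapping matches, starting 26 and 20 bases before the start of its window's count, and Psmb10 held 2 separate ones, 73 and 17 bases before. In Psmb8 the match began 4 bases before the start and ran across it. The letters TTCNNNGAA occurred in the windows of Psmb8 and Irf1, and in 8.87% of all windows. Psmb9 and Tap1 lie head to head, 408 bases apart, and their windows share 44 bases. Tap2, Psmb8, Tap1 and Psmb9 lie next to each other in the MHC, with Tap2 at chr20:4638257-4652296, Psmb8 at chr20:4654068-4657049, Tap1 at chr20:4658171-4668543 and Psmb9 at chr20:4668952-4674421 (GRCr8), and Tapbp lies on the same chromosome at chr20:4958821-4967958. No match in a window says only that these letters are not there.

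**Figure D1:**
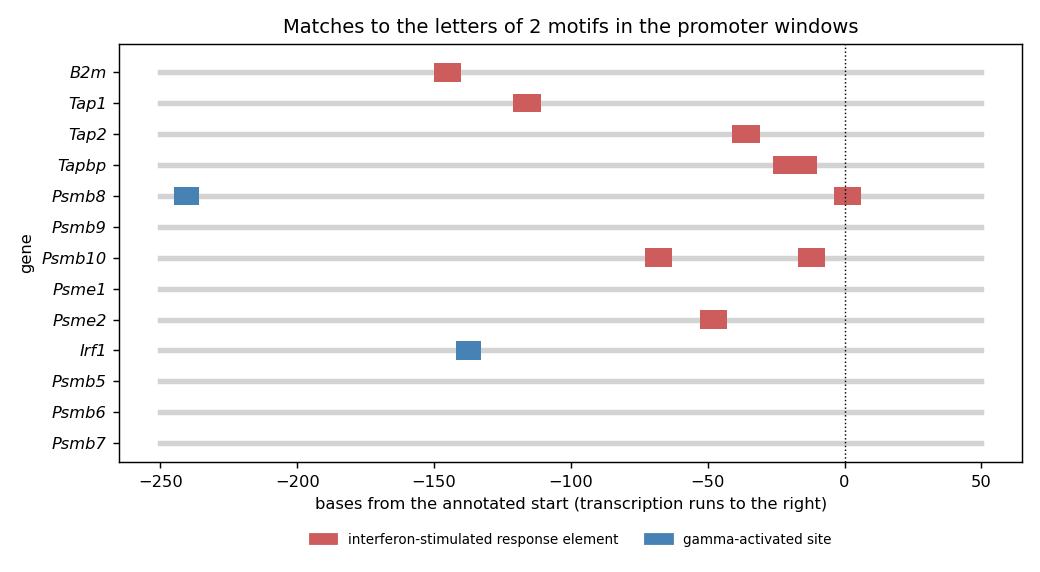
Position of each motif match (coloured blocks) in the promoter window of each gene (grey bars, 1 per gene), in bases from the annotated start. The 7 genes with the interferon-stimulated response element are B2m, Tap1, Tap2, Tapbp, Psmb8, Psmb10 and Psme2, and the 3 constitutive subunits at the bottom have no block.

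Probes for the results that follow are 60 bases long. The probes that stand for Psmb9 (chr20:4806341-4806400, plus strand), Tapbp (chr20:5111712-5111882, minus strand) and Psme2 (chr15:33723033-33723182, minus strand) are shown, with intervals of the array's own annotation on build rn4. Those of Tapbp and Psme2 span an interval longer than the probe. Among the probes that stand for a gene, that of Psmb9 had the most negative difference and that of Tapbp the smallest adjusted p-value. Psme2 is given because its probes disagreed.
Psmb9: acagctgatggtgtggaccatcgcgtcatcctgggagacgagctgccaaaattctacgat
Tapbp: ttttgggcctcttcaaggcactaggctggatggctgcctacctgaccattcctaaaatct
Psme2: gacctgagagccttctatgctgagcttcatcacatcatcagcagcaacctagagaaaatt

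None of the 10 genes passed the test for diet. The largest differences were in the immunosubunits and Tap2, and the smallest in B2m. Psmb9 and Tap2 had mean signals on the high-fat diet of 0.513 and 0.522 times the control mean, Psmb8, Psmb10 and Tapbp lay between 0.605 and 0.656 times, and B2m and Psme1 lay at 1.02 and 1.08 times. Differences are on the log2 scale, high-fat minus control, and each gene stands for its brightest tested probe. In limma, with p-values adjusted by Benjamini-Hochberg across the whole table, 0 genes were called lower at adjusted p under 0.05, against 0.527% of all genes, and 0 were called higher, against 0.35% (0.877% in either direction). Of the 21 probes 0 were called, against 0.907% of all probes. At adjusted p under 0.1 the 1 member called by its brightest probe was Tapbp, lower, against 1.6% of all genes. The second Psmb10 probe was also under 0.1 in limma, at 0.0778, and the second Tapbp probe was not, at 0.353. Before adjustment, 5 of 10 had p under 0.05 with a negative difference, against 8.4% of all genes, and 0 of 10 with a positive one, against 7.24%. In 3 of 10 every high-fat array lay below every control array, against 6.24% of all genes, and in 0 of 10 above every one, against 4.88%. The median difference was -0.49 over the 10 genes and 0.0040 over all genes tested, and 8 of the 10 were negative, against 49.4% of all genes. Adjusted p-values of the 10 ran from 0.0879 to 0.965. The labels do not say that the samples of a group came from separate animals, so a p-value speaks only to variation among the samples at hand.

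**Figure D2:**
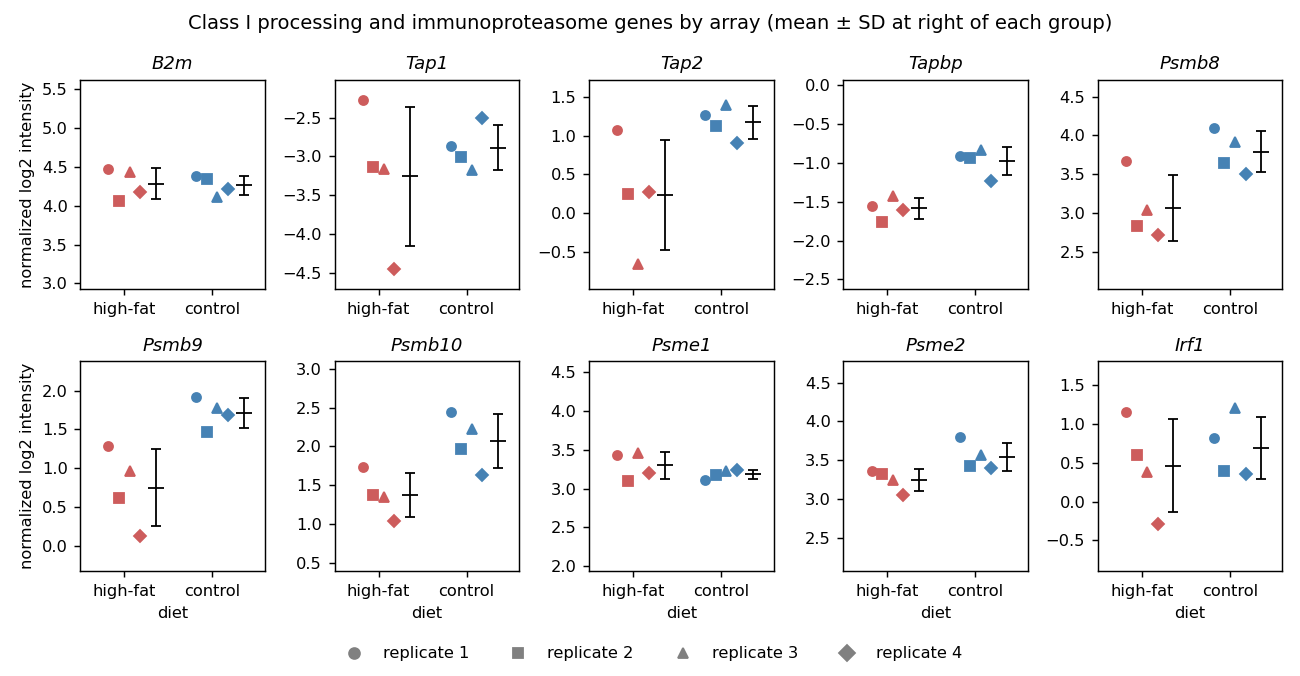
Normalized log2 intensity of the 10 genes on each array, with 4 high-fat arrays in red at left and 4 control arrays in blue at right of each panel, and mean ± SD beside each group. The high-fat points lie below all control points for Tapbp, Psmb9 and Psme2, and the groups overlap for the other 7 genes.

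Of 10 hepatocyte markers 0 were called in limma, and their median difference was -0.02. Cps1, a urea cycle enzyme, was the exception in size, with a difference of 0.98 (95% interval 0.25 to 1.70; adjusted p = 0.199), while the other hepatocyte markers ran from -0.14 to 0.14. Their signals, summed on the linear scale relative to the 75th percentile of each array, ran from 663 to 823 on high-fat arrays and from 638 to 871 on control arrays, a sum set by the most abundant of them. Between 50.4% and 71.9% of probes were well above background per array. The dimmest arrays were high-fat replicate 1 at 56.3% and control replicate 1 at 50.4%. Arrays correlated at 0.971 to 0.982 within the high-fat group, 0.970 to 0.985 within the control group and 0.960 to 0.980 between groups.

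The 3 immunosubunits had negative differences on all of their probes, and none was called. Psmb9, the immunoproteasome's caspase-like position, had values of 1.29, 0.62, 0.96 and 0.13 on high-fat arrays 1 to 4, against 1.92, 1.46, 1.78 and 1.68 on control arrays 1 to 4. All values here are log2 intensities relative to the 75th percentile of their array. The highest high-fat value lay below the lowest control value. The difference was -0.96 (95% interval -1.52 to -0.40), with an unadjusted p of 0.00383 and an adjusted p of 0.119 in limma. The second Psmb9 probe had 0.96, 0.31, 0.48 and -0.36 on high-fat arrays, against 1.90, 1.22, 1.48 and 1.42 on control arrays. Its groups did not overlap either, and its difference was -1.16 (adjusted p = 0.1 in limma).

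Psmb8, the chymotrypsin-like immunosubunit, had 3.67, 2.84, 3.04 and 2.72 on high-fat arrays, against 4.09, 3.65, 3.91 and 3.51 on control arrays. Only high-fat replicate 1 reached into the control range. The difference was -0.72 (95% interval -1.25 to -0.20; adjusted p = 0.194 in limma). The other Psmb8 probe gave -0.45 (adjusted p = 0.494), with overlapping groups, so the 2 probes differed in size but not in sign.

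Psmb10, the trypsin-like immunosubunit, had 1.73, 1.37, 1.34 and 1.04 on high-fat arrays, against 2.44, 1.97, 2.22 and 1.63 on control arrays. The groups overlapped through high-fat replicate 1 and control replicate 4. The difference was -0.70 (95% interval -1.18 to -0.21; adjusted p = 0.178 in limma). Its second probe shares 56 of its 60 bases with the first and so is a near repeat of the same measurement. That probe had 1.50, 1.20, 1.45 and 0.97 on high-fat arrays, against 2.36, 2.07, 2.27 and 1.77 on control arrays, with no overlap and a difference of -0.84 (adjusted p = 0.0778 in limma).

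The constitutive subunits that these 3 replace were measured on the same arrays. Psmb5, the chymotrypsin-like subunit, differed by -0.05 (95% interval -0.38 to 0.28; adjusted p = 0.918) and Psmb7, the trypsin-like subunit, by 0.07 (-0.25 to 0.39; adjusted p = 0.862). Psmb6, the caspase-like subunit, differed by -0.46 (-0.81 to -0.10; adjusted p = 0.217), but its second probe differed by only -0.09 (adjusted p = 0.864). Neither interval for Psmb5 and Psmb7 reached down to the differences of Psmb8, Psmb9 and Psmb10, but both overlapped the intervals of Psmb8 and Psmb10. The interval of Psmb6 held the differences of Psmb8 and Psmb10.

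Within an array, the log2 value of an immunosubunit minus that of its counterpart removes any scaling of that array. The level of such a ratio depends on the probes, and only its difference between diets is read. These ratios were chosen after the values were seen. The Psmb10 to Psmb7 ratio averaged 0.38 ± 0.38 on high-fat arrays and 1.14 ± 0.37 on control arrays (SD, n = 4 each), a difference of -0.77 (SE 0.27). Its groups did not overlap, and the two-sided exact permutation test gave p = 0.0286, the smallest that 70 splits allow, or 0.0858 after adjustment over the 3 ratios. The Psmb8 to Psmb5 ratio averaged 0.83 ± 0.42 on high-fat arrays and 1.51 ± 0.44 on control arrays, a difference of -0.68 (SE 0.30; exact permutation p = 0.0857, adjusted 0.114). The Psmb9 to Psmb6 ratio averaged -2.24 ± 0.40 on high-fat arrays and -1.74 ± 0.19 on control arrays, a difference of -0.51 (SE 0.22; exact permutation p = 0.114, adjusted 0.114). No ratio passed 0.05 after adjustment. The sign was negative in all 4 pairings of probes for each ratio, from -0.91 to -0.68 for Psmb10 to Psmb7, from -0.75 to -0.40 for Psmb8 to Psmb5 and from -1.06 to -0.51 for Psmb9 to Psmb6.

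**Figure D3:**
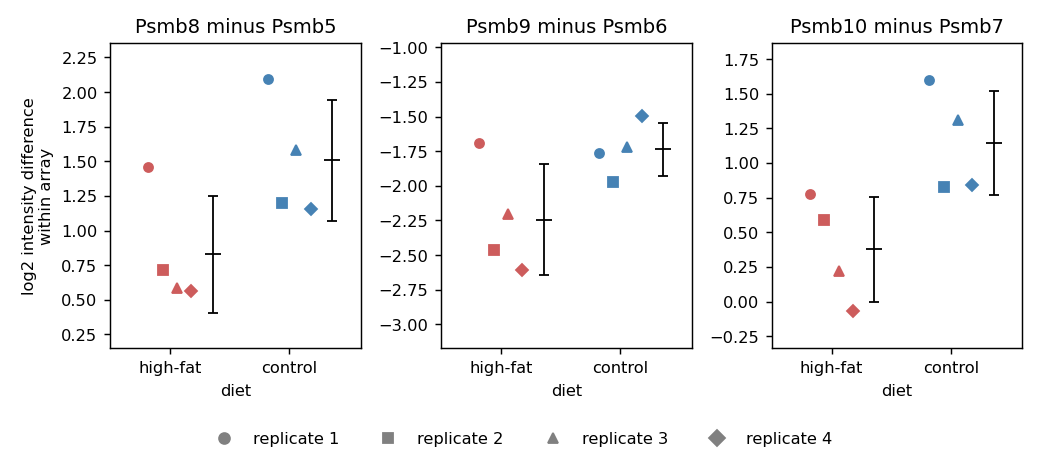
Log2 intensity of each immunosubunit minus that of its constitutive counterpart on the same array, for 4 high-fat arrays (red, left) and 4 control arrays (blue, right), with mean ± SD. The groups do not overlap for Psmb10 minus Psmb7 and overlap for the other 2 ratios, where high-fat replicate 1 is the highest high-fat array.

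The subunits of the proteasome activator ring had small differences of opposite sign, and neither was called. Psme1, the alpha subunit of the ring, had 3.44, 3.10, 3.45 and 3.20 on high-fat arrays, against 3.11, 3.17, 3.22 and 3.24 on control arrays. The groups overlapped, and the difference was 0.11 (95% interval -0.18 to 0.41; adjusted p = 0.739 in limma), with 0.07 on the second probe. Psme2, the beta subunit, had 3.36, 3.32, 3.25 and 3.05 on high-fat arrays, against 3.79, 3.43, 3.56 and 3.40 on control arrays. Every high-fat value was below every control value by a narrow margin, and the difference was -0.30 (-0.62 to 0.02; adjusted p = 0.354 in limma). The second Psme2 probe differed by -0.03 (adjusted p = 0.967), with overlapping groups. RefSeq lists 3 pseudogenes each for Psme1 and Psme2, so signal of near-identical copies in these probes was not separated.

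Among the peptide pump and loading genes, Tapbp had the most uniform values. It had -1.55, -1.76, -1.43 and -1.60 on high-fat arrays, against -0.91, -0.94, -0.83 and -1.23 on control arrays. The groups were apart, with an SD of 0.13 on high-fat and 0.18 on control arrays. The difference was -0.61 (95% interval -0.93 to -0.29), with an unadjusted p of 0.00198 and an adjusted p of 0.0879 in limma. That was the smallest adjusted p among the probes that stand for the 10 genes. The second Tapbp probe gave -0.36 (adjusted p = 0.353), and its groups overlapped.

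Tap2, one chain of the peptide pump, had 1.07, 0.25, -0.66 and 0.27 on high-fat arrays, against 1.26, 1.12, 1.40 and 0.90 on control arrays. High-fat replicate 1 lay within the control range, and the other high-fat arrays lay below it. The difference was -0.94 (95% interval -1.68 to -0.19; adjusted p = 0.224 in limma), and the dimmer second probe gave -0.84 (adjusted p = 0.284). Tap1, its partner, had -2.27, -3.14, -3.17 and -4.46 on high-fat arrays, against -2.87, -3.00, -3.18 and -2.50 on control arrays. The high-fat arrays held both the highest and the lowest value, with an SD of 0.90 on high-fat and 0.29 on control arrays. The difference was -0.37 (-1.30 to 0.56; adjusted p = 0.732 in limma), which spans a wide range in both directions, and the second probe gave -0.32. Without high-fat replicate 4 it was 0.03.

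The class I light chain B2m had the smallest difference of the 10 genes. It had 4.47, 4.06, 4.44 and 4.18 on high-fat arrays, against 4.39, 4.35, 4.11 and 4.21 on control arrays. The groups overlapped throughout. The difference was 0.02 (95% interval -0.30 to 0.35; adjusted p = 0.965 in limma), with 0.03 on the second probe. Its window holds the interferon-stimulated response element shown above.

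Irf1, the transcription factor of the set, had 1.16, 0.60, 0.39 and -0.29 on high-fat arrays, against 0.82, 0.40, 1.21 and 0.36 on control arrays. The groups overlapped, and the difference was -0.23 (95% interval -0.96 to 0.50; adjusted p = 0.793 in limma). Of its 2 other probes, one shares 52 bases with the first and gave -0.19. The third, above background on 4 high-fat and 3 control arrays, gave 0.11. Without high-fat replicate 4 the Irf1 difference was 0.02.

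**Figure D4:**
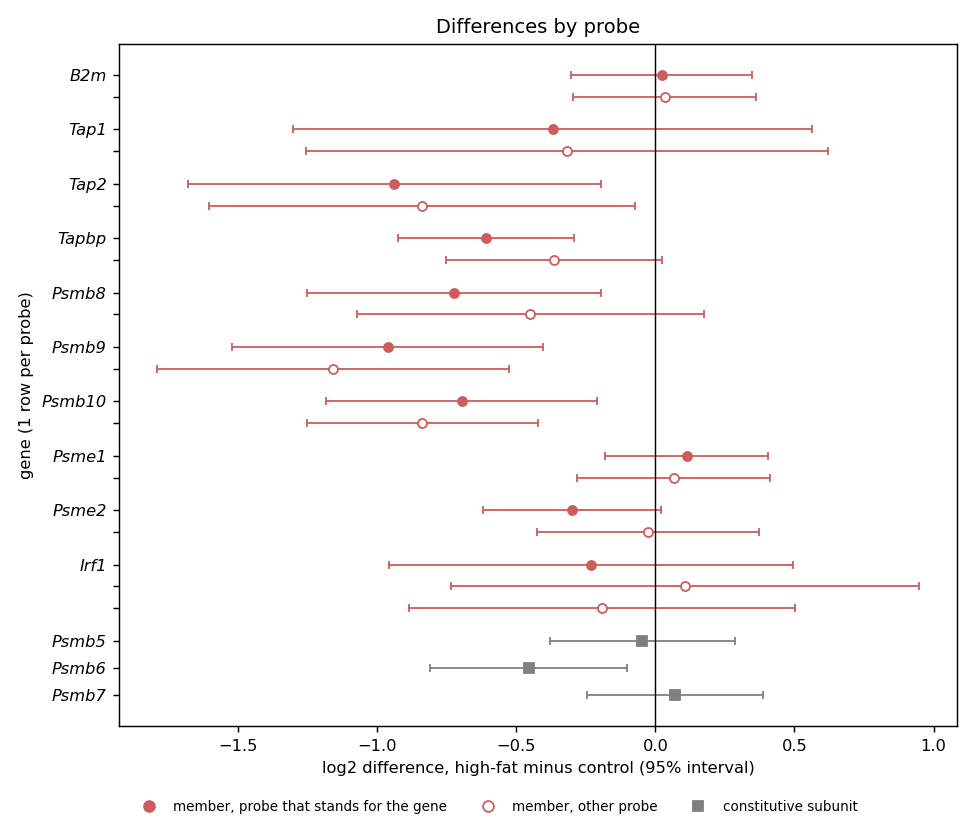
Log2 difference, high-fat minus control, with its 95% interval for each of the 21 probes (red; filled for the probe that stands for the gene) and for Psmb5, Psmb6 and Psmb7 (grey). The intervals of Tap2, Tapbp, Psmb8, Psmb9 and Psmb10 lie below 0 for the filled points before adjustment. Those of B2m, Tap1, Psme1, Psme2 and Irf1 span 0.

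The samples of each group differed among themselves along the same genes. High-fat replicate 1 was the highest of the 4 high-fat arrays in 8 of the 10 genes, and high-fat replicate 4 was the lowest in 6. Among the control arrays, control replicate 1 was the highest in 5 and control replicate 4 the lowest in 6. Averaged over the 10 genes, each centred on its own mean, the high-fat arrays stood at 0.21, -0.29, -0.26 and -0.60, against 0.38, 0.14, 0.32 and 0.10 on control arrays. High-fat replicate 1 was thus within the control range and also the dimmest high-fat array. Control replicate 1, the dimmest control array, had the highest control mean. The median difference was -0.66 without high-fat replicate 1, and -0.64 without it and control replicate 1. Each of the slide's 2 rows held 2 arrays of each diet, and the median difference was -0.40 within the first row and -0.73 within the second. Psmb9 differed by -0.74 and -1.18, Psmb8 by -0.62 and -0.83, Psmb10 by -0.66 and -0.73, Tapbp by -0.73 and -0.48, Tap2 by -0.53 and -1.34 and Psme2 by -0.27 and -0.33 within the first and the second row. Tap1 had 0.23 and -0.97, and Irf1 0.27 and -0.73, so these 2 genes pointed opposite ways in the rows. B2m had -0.10 and 0.14, and Psme1 0.13 and 0.09.

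The rest of the proteasome was measured as other lists of genes. Of 11 other 20S core subunits, 0 were called in either direction in limma, 10 of 11 were negative, and the median difference was -0.18. Unadjusted p was under 0.05 with a negative difference for 2 of them and with a positive one for 0, against 8.4% and 7.24% of all genes. Psma7 and Psma6, alpha ring subunits, differed by -0.41 (adjusted p = 0.156) and -0.32 (adjusted p = 0.237), and Psmb4, a beta ring subunit, by -0.30 (adjusted p = 0.325). The second probes of Psma7, Psma6 and Psmb4 gave -0.19, -0.36 and -0.18. In 4 of the 11, these 3 among them, every high-fat array lay below every control array, against 6.24% of all genes. Of 17 subunits of the 19S cap, which recognises tagged proteins, 0 were called, 12 were negative and the median was -0.07. Psmd4, a ubiquitin receptor, differed by -0.33 (adjusted p = 0.271), and the ATPases Psmc2 and Psmc5 by -0.23 and -0.19. The second probes of Psmd4, Psmc2 and Psmc5 gave -0.17, -0.003 and 0.08. Of 7 other activators and assembly factors 0 were called, with a median of -0.07. The assembly chaperones Psmg4 and Psmg1 differed by -0.45 (adjusted p = 0.141) and -0.35 (adjusted p = 0.236), and the nuclear activator Psme3 by 0.41 (adjusted p = 0.479).

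Of 8 other peptide loading genes, 0 were called, 4 were negative and the median was -0.04. The chaperone Calr, calreticulin, differed by -0.11, Tapbpl, the tapasin relative that edits peptides, by -0.11 and Erap1, the aminopeptidase that trims peptides, by -0.10. Of the class I heavy chains and relatives, 36 of 40 genes on the array were tested, 0 were called and 27 were negative. The median was -0.30 and the range -3.69 to 0.70. The lowest was RT1-CE10, whose probe was well above background on only 2 of 4 high-fat arrays. Its high-fat values were -2.20, -9.34, -9.49 and -2.12 (adjusted p = 0.366 in limma). Before adjustment 5 of the 36 had a negative and 2 a positive difference at p under 0.05, against 8.4% and 7.24% of all genes. RT1-T24-3, a nonclassical class I gene, differed by -1.89 (95% interval -3.20 to -0.58; adjusted p = 0.175), RT1-M3-1 by -0.60 (adjusted p = 0.213), and Hfe, the class I relative that controls iron uptake signalling, by 0.40 (adjusted p = 0.239). Rat RT1 genes are alike in sequence and vary between animals of an outbred stock, so their probes may read several genes or miss an allele. How far this moved the values was not tested.

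The interferon gamma list held 21 tested genes, of which 0 were called in limma, 18 were negative and the median was -0.21. The unadjusted p was under 0.05 with a negative difference for 2 and with a positive one for 0, against 8.4% and 7.24% of all genes. Irf7, which drives type I interferon genes, had -0.27, -1.72, -1.44 and -1.73 on high-fat arrays, against -0.06, -0.53, -0.39 and -0.38 on control arrays. High-fat replicate 1 again lay in the control range, and the difference was -0.95 (95% interval -1.68 to -0.22; adjusted p = 0.213). Gbp2, an interferon-induced GTPase, differed by -0.80 (adjusted p = 0.318) and the kinase Jak2 by -0.32 (adjusted p = 0.410). The second probes of Irf7, Gbp2 and Jak2 gave -0.40, -0.93 and 0.02. Ifng itself and Ido1 were not well above background on any array. Nlrc5, the class I transactivator, was not analysed here. Among 299 tested genes whose promoter window holds the interferon-stimulated response element, 7 of them members, the median difference was -0.08. It was 0.01 over the 9457 tested genes with a window. Of the 299, 3 were called lower and 0 higher, beside 0.527% and 0.35% of all genes. Among 674 tested genes whose window holds the gamma-activated site, the median was 0.03, and 3 were called lower and 3 higher.

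MHC class II presentation is set beside the class I genes as the nearest related pathway. All 10 class II genes were negative with a median of -1.0, and 4 of 10 were called lower, against 0.527% of all genes. These were RT1-DMa (-0.86; adjusted p = 0.0264), the class II transactivator Ciita (-0.86; adjusted p = 0.0344), RT1-Da (-1.51; adjusted p = 0.0413) and RT1-Ba (-1.41; adjusted p = 0.0490), all in limma. The second probe of RT1-DMa gave -0.72 (adjusted p = 0.249 in limma) and that of Ciita -0.20 (adjusted p = 0.735 in limma). That of RT1-Da gave -1.30 (adjusted p = 0.0417 in limma), and RT1-Ba had no other tested probe. When any 1 of the 8 arrays was left out, 0 or 1 of the class II genes was called lower, and 1 with slide row as a block. Their difference from the class I genes was not tested.

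**Figure D5:**
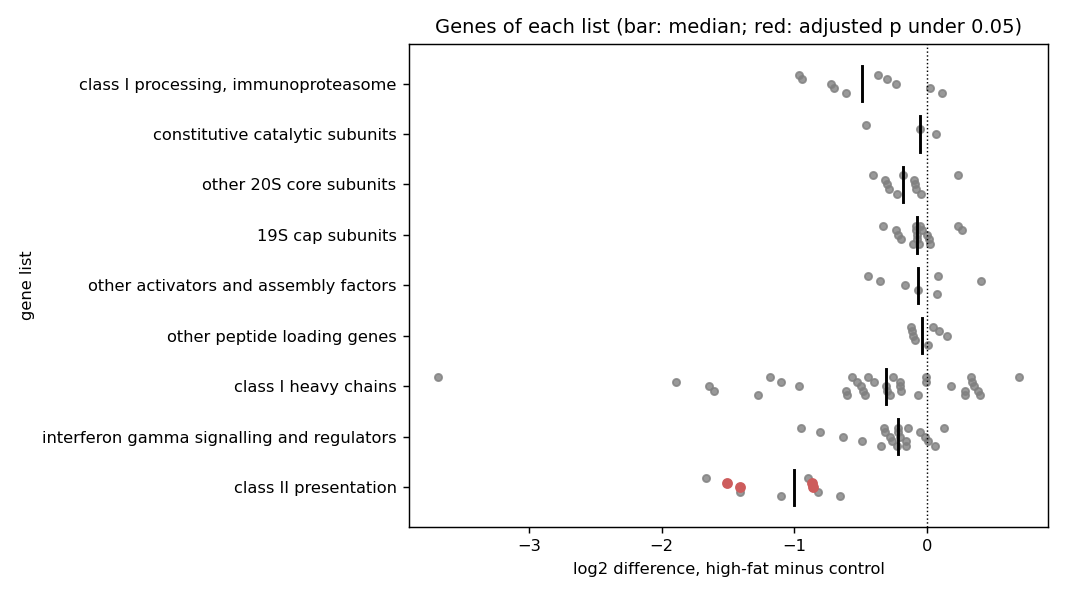
Log2 difference, high-fat minus control, of every tested gene (points) in the class I processing set and 8 related lists, with the list median as a bar and genes of adjusted p under 0.05 in red. The class I processing set has a median of -0.49 with no red point, and the class II list a median of -1.0 with 4.

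Markers of immune cells, which are rich in class I machinery, were measured beside these results. Over all genes tested, 0.527% were called lower, 0.35% were called higher and 49.4% were negative. Of 13 Kupffer cell and macrophage markers 0 were called and 12 were negative, with a median of -0.26 and a summed signal of 42.2 to 62.0 on high-fat arrays and 56.6 to 78.7 on control arrays. The scavenger receptor Marco differed by -2.38 (adjusted p = 0.144), Vsig4 by -0.78 (adjusted p = 0.178) and Clec4f by -0.60 (adjusted p = 0.181). Of 15 tested T and NK cell markers 1 was called lower, Cd3g of the T cell receptor complex (-1.44; adjusted p = 0.0417), and 10 were negative, with a median of -0.25. Cd3g was not called when any 1 of the 8 arrays was left out. The marker Nkg7 lacked a value on high-fat replicate 4 and was fitted on the other 7 arrays. The summed signal of the 14 markers without it was 0.836 to 1.32 on high-fat arrays and 1.17 to 1.80 on control arrays. Of 6 dendritic cell markers 1 was called lower, Cd207 (adjusted p = 0.000322), whose probe did not clear background well in the high-fat group. In that list 3 of 6 were negative, the median was -0.05, and the summed signal was 0.124 to 0.208 on high-fat and 0.218 to 0.292 on control arrays. Without Cd207 the sums overlapped, at 0.119 to 0.205 on high-fat and 0.119 to 0.232 on control arrays. Of 4 B and plasma cell markers 0 were called, with sums of 0.0502 to 0.0770 on high-fat and 0.0625 to 0.137 on control arrays (0.0625 to 0.0715 without control replicate 4), and Ms4a1 was above background on no array. Markers of other liver cells also differed between diets without passing the test. Of 7 sinusoidal endothelial markers 0 were called, with a median of 0.14 and summed signals of 14.8 to 22.1 on high-fat and 10.7 to 19.5 on control arrays. They went both ways, with Lyve1 at 0.96 (adjusted p = 0.0708), the scavenger receptor Stab2 at 0.60 (adjusted p = 0.162) and Clec4g at -0.58 (adjusted p = 0.212). Of 5 cholangiocyte markers 0 were called and all 5 were negative, with a median of -0.62 and sums of 0.584 to 0.822 on high-fat and 0.847 to 1.44 on control arrays. Epcam differed by -0.62 (adjusted p = 0.151), Spp1 by -1.64 (adjusted p = 0.186) and Cftr by -0.71 (adjusted p = 0.331). Of 4 erythroid markers 0 were called and 3 were positive, with a median of 1.09 and sums of 71.7 to 114.6 on high-fat and 27.9 to 71.8 on control arrays. Alas2, the haem synthesis enzyme of red cell precursors, differed by 1.43 (adjusted p = 0.09) and the globins Hba-a2 and Hbb by 1.14 (adjusted p = 0.144) and 1.05 (adjusted p = 0.181). The second probes of Alas2, Hba-a2 and Hbb gave 0.36, 1.16 and 1.05. Of 5 neutrophil markers 0 were called, with a median of -0.03. Fewer cells of a type and less RNA per cell cannot be told apart in whole liver, and the part of these cells in the class I results was not tested.

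The genes whose values were most like the mean of the 10 over the 8 arrays were found by Pearson correlation among 11609 named genes with their brightest probe. Smpd4, a neutral sphingomyelinase, had a correlation of 0.995, and 0.996 after each diet's mean was subtracted. It was followed by Alad, an enzyme of haem synthesis (0.983), Blvra, which reduces biliverdin (0.970), Ankrd13d (0.968), Krtcap2 (0.964), the interferon-induced ubiquitin-like protein Isg15 (0.962), the adenosine receptor Adora1 (0.959) and Rasa4 (0.957). The values are the highest of many over few arrays and are given as a description. Isg15 averaged -0.96 ± 0.80 on high-fat arrays and 0.28 ± 0.32 on control arrays (SD, n = 4 each), a difference of -1.24 (adjusted p = 0.175 in limma). None of the 8 was called.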

How the data were processed

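Total RNA of 8 liver samples (4 high-fat, 4 control; 500 ng each) was labelled with Cy3 and hybridised to custom 1-colour Agilent arrays, per the labels' protocols. Per the file headers, images were read with Agilent Feature Extraction 10.7.3.1, and the deposited intensity per spot (gProcessedSignal) is corrected for background by that software. The authors' deposited value table was on the log2 scale and was set against the scanner values. It correlated at 0.999 or more per array, and at least 98.47% of 46883 probes lay within 0.05 of log2 intensity minus the array's 75th percentile over all non-control probes. Its medians were -3.14, -3.20, -3.16 and -3.20 in high-fat columns 1 to 4 and -3.10, -3.21, -3.14 and -3.17 in control columns 1 to 4. Its direction follows the scanner values, it was not centred per gene, and it served as an alternative.

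From the intensities, log2 values were taken minus each array's 75th percentile over probes well above background on all 8 arrays. Control spots and outlier spots were dropped, and repeated spots averaged. A probe was kept if it cleared background well on 4 or more of 8 arrays, which left 31535, fitted with limma 3.58.1 (lmFit, eBayes) in R 4.3.3 with diet as the only term, and Benjamini-Hochberg adjustment ran over all of them at a threshold of 0.05. A gene stands for its tested probe with the highest mean. The fit was tested on 10 simulated sets with 200 of 31455 probes changed. It called 39.3% of 2-fold and 79% of 4-fold changes, and 5.44% of its calls were on unchanged probes. The number of arrays limits the precision. Samples with the same replicate number correlated at -0.12, 0.26, 0.23 and 0.01 in their deviations from the group means, so the numbers were not taken as pairs. The 3 ratios of subunits were tested by exact permutation of arrays.

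Named genes were all 10 members with every probe, each list's called genes or its 3 with the smallest p, Psmb5, Psmb6 and Psmb7, and the 8 most similar genes. One further gene that the rule names is not reported here. Cd207, Nkg7, Ms4a1, Ifng, Ido1 and RT1-CE10 are named outside or beside that rule for their detection. Members and lists were chosen with earlier results of these data known. Alternatives covered background correction, scaling, dim probes, summary over probes, array weights, slide row, replicate block and leaving out each array. Probe positions are from the array annotation (rn4 per the file headers), and promoter windows from RefSeq GRCr8.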

Additional observations from a re-analysis of the deposited data

Results flagged for a closer look

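In 168 sets of 4 arrays checked, 6 held 1 array far from the other 3, by Dixon's gap test. Chance marks about 1 in 20 sets. The second B2m probe read 3.84 on high-fat replicate 2, against 4.14 to 4.19 on the other high-fat arrays, while the brighter B2m probe was not marked. Psmd4 read 3.80 on control replicate 2, against 3.43 to 3.48 on the other control arrays. Psmg4 read 0.373 on high-fat replicate 3, against 0.222 to 0.244 on the other high-fat arrays. Marco read -2.47 on high-fat replicate 3, against 0.35 to 0.50 on the other high-fat arrays. Cd79a, a B cell marker, read -3.77 on control replicate 4, against -7.58 to -7.09 on the other control arrays. Adora1 read -1.18 on high-fat replicate 1, against -3.58 to -3.31 on the other high-fat arrays. All values are normalized log2 intensities.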

How the results depend on the processing

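None of the 10 genes was called in any alternative run at adjusted p under 0.05. At adjusted p under 0.1, Tapbp was the 1 gene called by its brightest probe, where 1.6% of all genes were called lower. Over the alternatives the adjusted p-value of Tapbp ran from 0.0507 to 0.239 and that of Psmb9 from 0.0557 to 0.276. Psmb8, Psmb9, Psmb10, Tapbp, Tap2 and Psme2 were negative and Psme1 positive in every alternative, and the 3 subunit ratios were negative in all 21 alternatives run on them. Leaving out single arrays moved B2m between -0.038 (without high-fat replicate 1) and 0.096, Tap1 between -0.70 and 0.030 and Irf1 between -0.46 and 0.022 (both highest without high-fat replicate 4). B2m was also negative, at -0.03, without high-fat replicate 3 or control replicate 3. In the first slide row B2m was -0.10, Tap1 0.23 and Irf1 0.27. The median over the 10 genes ran from -0.66 to -0.41 when single arrays were left out. The count of all genes called, 163, became 253 with normexp, 5 without a filter on dim probes, 331 with probes above background on all arrays, 335 with trend and robust eBayes, 98 with slide row as a block, 14 without the dimmest array of each diet, 504 at adjusted p under 0.1, and 16 to 89 without single arrays. With the replicate block it was 1, and 0 of the 10 genes were called. The class II count of 4 called lower became 0 to 1 without single arrays, 0 with the replicate block and 7 with probes above background on all arrays. The causes were not tested, and runs without arrays also had fewer samples. Among values of the other lists, 59 moved by more than their spread or 1.5 times.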
